A study of Mus musculus with 12 samples.

Results

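Markers of the ovarian surface epithelium, the single layer of mesothelium-like cells that covers the ovary, were followed in whole-ovary RNA. The set was chosen by gene symbol and holds 10 genes: the simple-epithelium keratins Krt7, Krt8, Krt18 and Krt19, the uroplakins Upk1b and Upk3b, Msln, Muc16, Cdh1 and Gpm6a. The deposited table gave values for 9 of them among 24255 genes, and Muc16 was not analysed here. Of the 9 genes, 8 passed the filter on low values and Msln did not.

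The libraries came from C57BL/6 mice aged 6 months that had received 5 IU of equine chorionic gonadotropin (PMSG), a hormone that stimulates follicle growth, 46 h before the ovaries were taken. The 5 CKO libraries carried an oocyte-directed deletion of Mtor, the gene of the mTOR growth kinase, made with Gdf9-Cre, and the other 7 were wild type (WT). Gdf9-Cre is directed to oocytes and not to the surface epithelium. Nothing in the labels ties a sample to an animal, and p-values therefore cover the spread between these samples only, which may be technical. For 1 WT library the name in the table matches more than 1 WT label, and it is called the unnumbered WT library.

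The surface epithelium is a simple epithelium of mesodermal origin that is broken and repaired at each ovulation. Its cells carry keratin filaments, which are obligate pairs of a type II keratin (Krt7, Krt8) and a type I keratin (Krt18, Krt19). Uroplakins are membrane proteins first described in the bladder lining and are also made by mesothelium. Mesothelin (Msln) and the mucin Muc16 are surface glycoproteins that bind each other, Cdh1 encodes E-cadherin, the adhesion protein of epithelial junctions, and Gpm6a encodes a membrane glycoprotein best known from neurons. Keratins, E-cadherin and mesothelin are shared with other epithelia, among them that of the oviduct, so the set is not exclusive to the ovarian surface.

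Values are FPKM, fragments scaled to transcript length and library depth, which allow levels to be compared between genes. By the steps between the lowest values, a single fragment counted for 0.308 to 0.684 FPKM per kb of transcript, a 2.22-fold spread of depth in which CKO replicate 1 was the deepest. Mtor itself, which all ovarian cells express, ranged from 3.84 to 5.55 FPKM in WT and 4.63 to 5.88 FPKM in CKO, and a level in whole ovary does not check a deletion in oocytes. CKO replicate 1 stood apart in these markers. Of the 83 listed genes tested, 6 lost their call without it (Krt19, Foxl2, Ogn, Plin1, Ptprc and Sox17) and 3 gained one (Cdh2, Ovgp1 and Tppp3). Lost calls are not particular to this library. Over all genes, 1145 were called higher and 999 lower with all libraries, and 869 and 801 without CKO replicate 1. The counts were 903 and 732 without CKO replicate 3 and 918 and 766 without CKO replicate 5. Without the unnumbered WT library they were 1193 and 1091. CKO replicates 2 and 3 carried the oviduct transcript Ovgp1 at 252 and 81.9 FPKM, against 0 to 1.45 FPKM in WT. In bulk RNA, fewer cells of a type and less RNA per cell cannot be told apart.

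Promoter sequences are shown for Krt7, Krt8, Krt18 and Upk3b, the 4 markers with an entry in the RefSeq table used that were highest in the same library, CKO replicate 1. Krt7, Krt8 and Krt18 lie on chromosome 15 of mm10. Krt7 (101411043 to 101430313, plus strand) lies 566 kb from Krt8 (101996698 to 102004482, minus strand). Krt8 and Krt18 (102028180 to 102032027, plus strand) are neighbours that face away from each other across 23.7 kb. The sequences are from RefSeq on GRCm38.p6, run from 250 bases before to 50 bases after the transcript start, and carry in capitals every match on either strand to TATAAA, the core promoter box, to GGGCGG, the GC box bound by Sp1, and to CACCTG, an E-box. They cover chr15:101412153-101412452 (plus strand) for Krt7, chr15:102004293-102004592 (minus strand) for Krt8 chr15:102027966-102028265 (plus strand) for Krt18 and chr5:136038246-136038545 (plus strand) for Upk3b.
Krt7: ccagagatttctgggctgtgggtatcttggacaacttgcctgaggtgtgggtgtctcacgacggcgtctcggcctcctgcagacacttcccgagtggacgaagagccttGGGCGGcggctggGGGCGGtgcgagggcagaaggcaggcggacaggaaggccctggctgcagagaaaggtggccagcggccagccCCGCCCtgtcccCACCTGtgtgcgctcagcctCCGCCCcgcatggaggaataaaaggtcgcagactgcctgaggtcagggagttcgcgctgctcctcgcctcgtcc
Krt8: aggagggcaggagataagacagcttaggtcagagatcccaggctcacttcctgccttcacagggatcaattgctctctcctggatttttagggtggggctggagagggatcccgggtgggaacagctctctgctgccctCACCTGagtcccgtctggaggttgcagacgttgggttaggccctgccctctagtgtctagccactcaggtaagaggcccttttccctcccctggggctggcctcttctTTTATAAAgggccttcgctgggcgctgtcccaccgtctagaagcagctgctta
Krt18: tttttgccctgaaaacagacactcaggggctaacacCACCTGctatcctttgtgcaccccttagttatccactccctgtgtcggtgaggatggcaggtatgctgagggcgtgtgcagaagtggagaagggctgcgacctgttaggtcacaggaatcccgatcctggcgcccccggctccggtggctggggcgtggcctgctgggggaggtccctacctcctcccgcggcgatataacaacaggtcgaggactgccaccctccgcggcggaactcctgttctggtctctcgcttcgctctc
Upk3b: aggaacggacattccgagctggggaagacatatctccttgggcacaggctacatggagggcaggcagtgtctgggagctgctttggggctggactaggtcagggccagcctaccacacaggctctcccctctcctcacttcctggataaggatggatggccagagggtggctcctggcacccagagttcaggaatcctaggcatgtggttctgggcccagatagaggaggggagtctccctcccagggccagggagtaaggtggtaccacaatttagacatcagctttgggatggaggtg

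The 3 keratin windows held 1 match to CACCTG each and that of Upk3b held 0, and this motif was found in 20.2% of all 32851 promoters of 300 bases. The GC box was matched 4 times in Krt7 and in 35.7% of all promoters, and TATAAA was matched in Krt8 alone of the 4, on both strands of 1 overlapping stretch, and in 13.6% of all promoters. TGANTCA and AACNNGTT, the letters bound by AP-1 and by grainyhead-like factors, were found in none of the 4 windows and in 7.81% and 4.20% of all promoters. A GC content of 66.3% in Krt7, 58% in Krt8, 61.3% in Krt18 and 58.7% in Upk3b compared with a median of 52.7% over all promoters. The table used matched 6 of the 10 genes. The matches describe these letters in these windows.

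Krt19 had the highest mean level in WT ovaries and Msln the lowest, while by median Upk3b (22.1 FPKM) lay above Krt19 (18.9 FPKM). In descending order the mean WT levels were 25.3 ± 13.2 FPKM for Krt19, 21.3 ± 7.71 for Upk3b, 18.9 ± 4.85 for Upk1b, 15.3 ± 5.19 for Krt8, 12.6 ± 3.23 for Gpm6a, 11.1 ± 5.63 for Krt18, 10.7 ± 3.55 for Krt7, 2.76 ± 0.813 for Cdh1 and 0.782 ± 0.301 for Msln (SD, n = 7). The first 7 genes formed a continuous series. None of the 8 neighbouring pairs in this order passed an exact paired sign-flip test after Benjamini-Hochberg adjustment over the 8 pairs, although Krt7 exceeded Cdh1, and Cdh1 exceeded Msln, in 7 of 7 libraries (exact p = 0.0156, the smallest that 7 pairs can give, adjusted p = 0.0625). Krt19 was above 72.4% and Cdh1 above 16.4% of the 13168 genes tested, by mean WT level. Of 52 keratin genes in the table, 43 stayed under 1 FPKM in every library, and the 4 simple keratins made up 85.7% to 96.7% of the summed keratin FPKM. Of 12 other keratins listed, 9 stayed under 1 FPKM in every library, 3 of these (Krt5, Krt6a and Krt13) at 0, while Krt10, a keratin of stratified epithelium, was at 1.63 to 3.25 FPKM.

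In CKO ovaries 1 of the 8 genes tested, Krt19, was higher than in WT, and none was lower. Calls were made with limma on log2(FPKM + 1), at a Benjamini-Hochberg adjusted p under 0.05 over all 13168 genes, of which 8.7% were called higher and 7.59% lower. At an unadjusted p under 0.05 there were 3 genes (Krt19, Gpm6a and Krt18). More of all genes pass that threshold than the adjusted one, and their share was not counted, so the 3 are not read as a result. The exact Wilcoxon test called 0 of the markers, and 749 of the 13168 genes higher and 676 lower. All 8 estimates were above 0, with a median log2 fold change of 0.52, against -0.01 over all genes tested. Without CKO replicate 1 no marker was called, the median was 0.25, and the estimates of Krt7 and Krt8 were below 0. The genotypes overlapped in 8 of 8 genes, while 4.09% of all genes tested had every CKO value above every WT value.

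**Figure D1:**
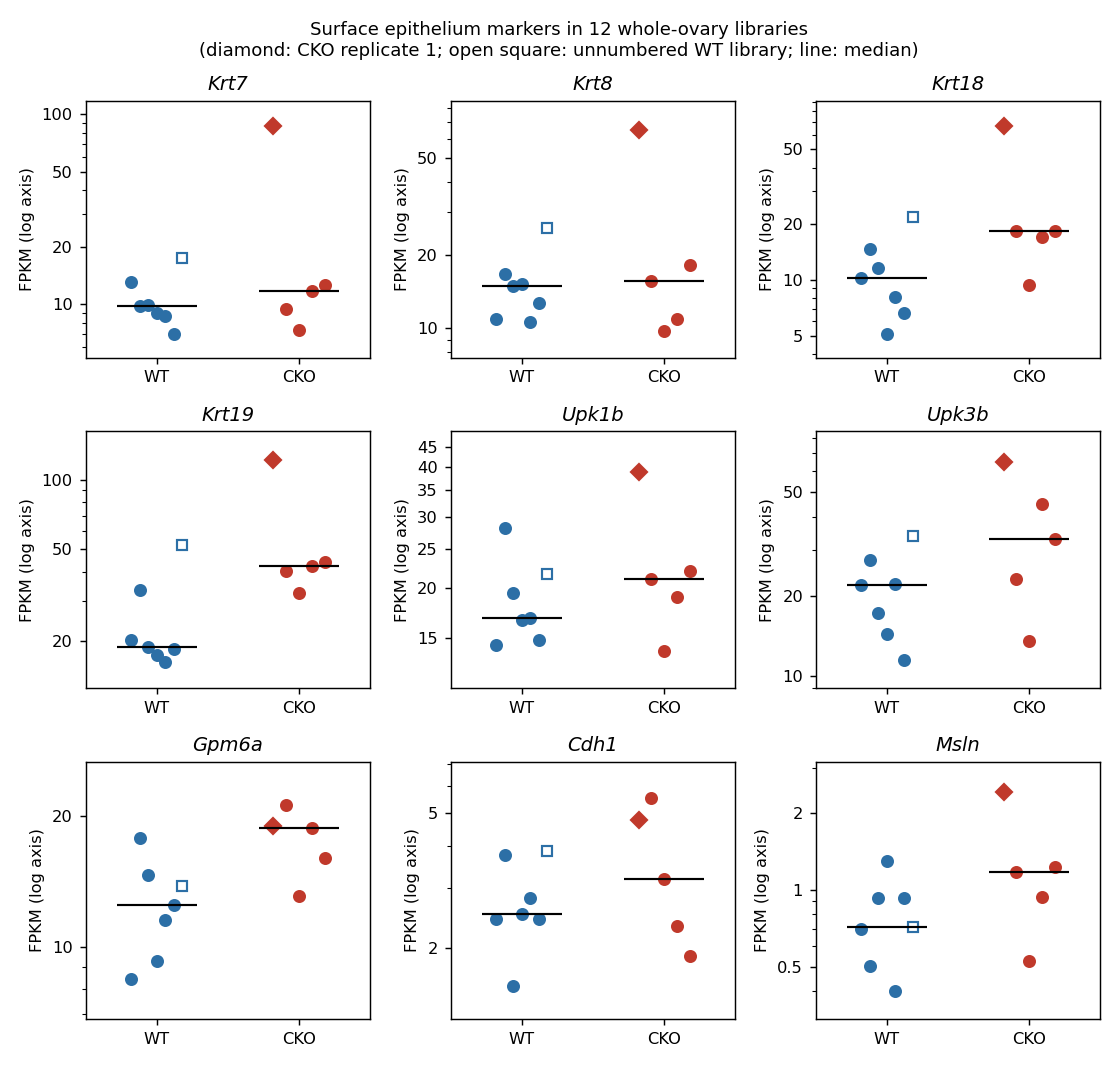
FPKM (log axis) of the 9 markers in the 7 WT (blue) and 5 CKO (red) libraries, 1 point per library, with the median as a line. CKO replicate 1 (diamond) is the highest of the 12 libraries in 7 of 9 genes, and the unnumbered WT library (open square) is the highest WT library in 6 of 9.

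Among the type I keratins, Krt19, which lacks most of the tail domain of other keratins and marks simple epithelia and ducts (chromosome 11, 100140810 to 100148665, minus strand), showed the one call. WT libraries ranged from 16.3 to 52.3 FPKM with a median of 18.9 FPKM. The CKO libraries were at 122, 40.1, 32.4, 42.5 and 44.2 FPKM in replicates 1 to 5. All 5 CKO libraries lay above the WT median, 1 of them above the highest WT library, and 2 WT libraries, replicate 2 at 33.4 FPKM and the unnumbered library at 52.3 FPKM, reached the CKO range. CKO exceeded WT by 1.07 on the log2 scale (SE 0.33, adjusted p = 0.039, limma), and the exact permutation test of the genotype labels gave p = 0.0177 (two-sided, not adjusted). Leaving out CKO replicate 1 brought the difference to 0.75 (SE 0.27, adjusted p = 0.0877), and the call depended on 8 of the 12 libraries. These were WT replicates 1, 3, 4, 6 and 7 and CKO replicates 1, 4 and 5, each of which ended it when left out. With the unnumbered WT library left out, the log2 fold change was 1.26 (adjusted p = 0.00862).

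Krt18, the filament partner of Krt8, ranged from 5.10 to 21.6 FPKM in WT with a median of 10.2 FPKM. In CKO replicates 1 to 5 it was at 66.8, 18.3, 9.40, 17.0 and 18.2 FPKM. Replicate 1 alone exceeded the highest WT library, and 4 of 5 CKO libraries exceeded the WT median. A log2 fold change of 0.96 (SE 0.40, 95% interval 0.10 to 1.81) did not pass over all genes (adjusted p = 0.122, limma). It was 0.55 without CKO replicate 1 (95% interval -0.12 to 1.21, adjusted p = 0.284).

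The type II keratins Krt7 and Krt8 differed between the genotypes by less than the spread of the libraries. Krt7, a keratin of glandular and ductal epithelia, ranged from 6.99 to 17.6 FPKM in WT with a median of 9.84 FPKM, and was at 86.7, 9.52, 7.35, 11.7 and 12.7 FPKM in CKO replicates 1 to 5. The other 4 CKO libraries fell within the WT range. Its log2 fold change was 0.57 (95% interval -0.41 to 1.54, adjusted p = 0.441, limma) and was -0.03 without CKO replicate 1 (95% interval -0.49 to 0.43, adjusted p = 0.948).

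Krt8, the most widely made keratin of simple epithelia, ranged from 10.6 to 25.9 FPKM in WT with a median of 14.9 FPKM. The CKO values were 65.1, 15.7, 9.80, 10.9 and 18.3 FPKM in replicates 1 to 5. Replicate 1 lay above all WT libraries and replicate 3 below them. Its log2 fold change of 0.31 (95% interval -0.48 to 1.09, adjusted p = 0.624, limma) became -0.13 without CKO replicate 1 (95% interval -0.62 to 0.35, adjusted p = 0.751). A processed pseudogene, Krt8-ps, is annotated, and how reads were split between it and Krt8 is not given in the sources used here.

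**Figure D2:**
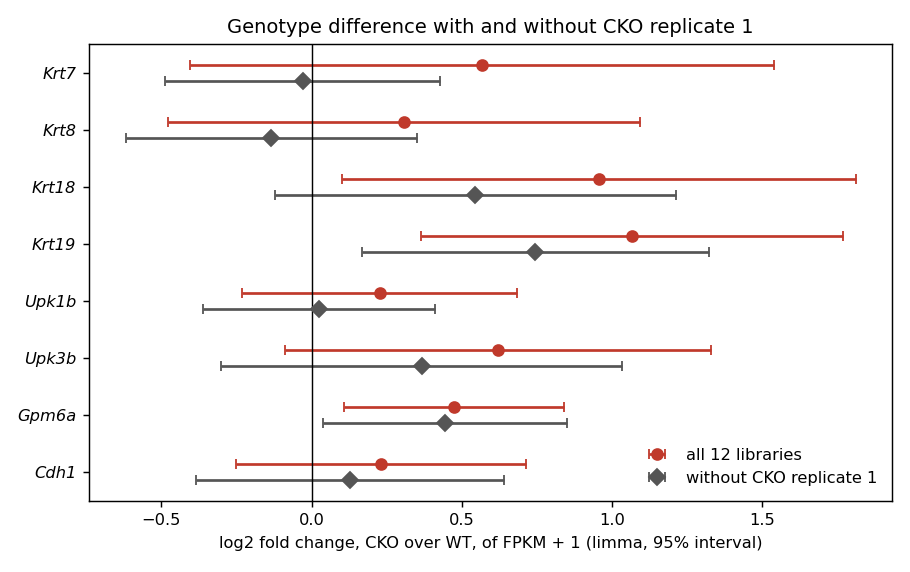
Log2 fold change of FPKM + 1, CKO over WT, with 95% intervals (limma), for the 8 genes tested, from all 12 libraries (circles) and without CKO replicate 1 (diamonds). Krt7 moves from 0.57 to -0.03 and Krt8 from 0.31 to -0.13, while Gpm6a moves from 0.47 to 0.44.

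The summed type I transcripts (Krt18 and Krt19) and type II transcripts (Krt7 and Krt8) stood in different proportions in 4 of the 5 CKO libraries and in WT. Because this ratio was chosen after the values were seen, tests run on it are not given. The ratio was 1.27, 1.81, 1.23, 0.933, 1.27 and 1.27 in WT replicates 1, 2, 3, 4, 6 and 7 and 1.70 in the unnumbered WT library. In CKO replicates 2, 3, 4 and 5 it was 2.32, 2.44, 2.63 and 2.02, above every WT library. In CKO replicate 1 it was 1.24, inside the WT range. A ratio within a library does not depend on how libraries were scaled to each other.

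**Figure D3:**
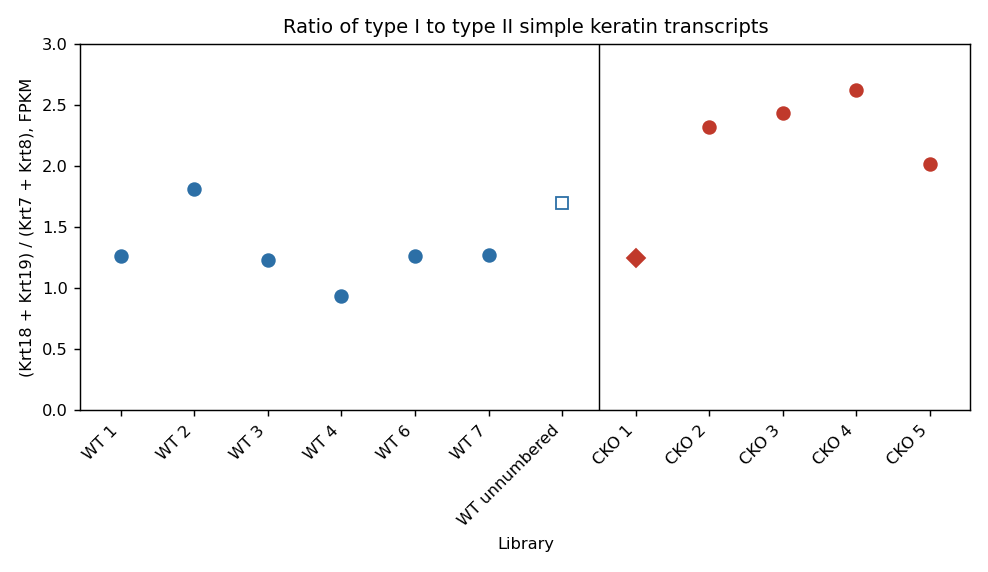
Ratio of summed FPKM of Krt18 and Krt19 to that of Krt7 and Krt8 in each of the 7 WT (blue) and 5 CKO (red) libraries. CKO replicates 2 to 5 lie between 2.02 and 2.63, above the WT libraries at 0.933 to 1.81, and CKO replicate 1 (diamond) lies at 1.24.

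The uroplakins, tetraspan and single-pass partners of membrane plaques, did not pass. Upk3b (chromosome 5, 136038496 to 136046487, plus strand), a mesothelium marker, ranged from 11.5 to 33.8 FPKM in WT with a median of 22.1 FPKM, and was at 64.7, 23.3, 13.5, 44.8 and 33.0 FPKM in CKO replicates 1 to 5. CKO replicates 1 and 4 lay above all WT libraries and replicate 3 near the lowest of them. CKO differed from WT by 0.62 on the log2 scale (95% interval -0.09 to 1.33, adjusted p = 0.227, limma). Without CKO replicates 2 and 3, the libraries with Ovgp1, it was 1.15 and passed (adjusted p = 0.0249). Without CKO replicate 1 it was 0.37 (adjusted p = 0.494).

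Upk1b (chromosome 16, 38773184 to 38800328, minus strand), a tetraspanin, ranged from 14.4 to 28.2 FPKM in WT with a median of 16.8 FPKM, and was at 38.9, 21.1, 13.9, 18.9 and 22.0 FPKM in CKO replicates 1 to 5. Replicate 1 alone exceeded every WT library, and replicate 3 lay below them all. A log2 fold change of 0.23 (95% interval -0.23 to 0.69, adjusted p = 0.522, limma) was 0.02 without CKO replicate 1 (95% interval -0.36 to 0.41). The bladder uroplakins Upk2 and Upk3bl were listed at 0 in all 12 libraries, and Upk3a was at 0 in all but 1. Upk1a, which pairs with Upk2 in bladder, was at 14.7 and 4.64 FPKM in CKO replicates 2 and 3, and at most 1.25 FPKM in WT.

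Gpm6a (chromosome 8, 54954843 to 55060871, plus strand) was the marker that moved least with CKO replicate 1. It ranged from 8.42 to 17.8 FPKM in WT with a median of 12.5 FPKM, and was at 18.9, 21.1, 13.1, 18.8 and 16.0 FPKM in CKO replicates 1 to 5. All 5 CKO libraries lay above the WT median and 3 above the highest WT library. The difference of 0.47 on the log2 scale (SE 0.17, 95% interval 0.11 to 0.84) did not pass over all genes (adjusted p = 0.0754, limma, and exact permutation p = 0.0303). It was 0.44 without CKO replicate 1 (adjusted p = 0.144), and passed without WT replicate 2 (adjusted p = 0.0334) or without CKO replicate 3 (adjusted p = 0.0495).

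Cdh1 (chromosome 8, 106603351 to 106670246, plus strand) was low in whole ovary, at 1.54 to 3.85 FPKM in WT with a median of 2.52 FPKM. It was at 4.77, 5.53, 3.19, 2.33 and 1.89 FPKM in CKO replicates 1 to 5, and replicates 1 and 2 lay above every WT library. The log2 fold change was 0.23 (95% interval -0.25 to 0.71, adjusted p = 0.537, limma), and it was 0.13 without CKO replicate 1, 0.083 without CKO replicate 2 and 0.38 without CKO replicate 5. Msln (chromosome 17, 25748613 to 25754378, minus strand) was the lowest marker, with a WT minimum of 0.401, median of 0.712 and maximum of 1.30 FPKM, and was at 2.41, 1.17, 0.525, 0.934 and 1.23 FPKM in CKO replicates 1 to 5. By the depth estimate, and for the longest annotated transcript, its values rest on about 1.95 to 17.0 fragments a library. The exact permutation p was 0.135 for Msln, and values resting on so few fragments do not settle whether the genotypes differ. The exact permutation test was run for each of the 9 genes and also for the genes of the other lists, and the p-values given are not adjusted.

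The authors' deposited table called 6 of the 9 markers higher in CKO and 0 lower at a Cuffdiff q under 0.05, where 4.44% of its 24255 genes were called higher and 3.64% lower. These shares count every gene, also those under the filter used for limma, and cannot be set beside the limma shares. In the authors' deposited table the log2 fold change was 1.25 for Krt7, 0.65 for Krt8, 1.22 for Krt18, 1.15 for Krt19, 0.75 for Upk3b and 0.49 for Gpm6a, with q between 0.0006 and 0.0407. Upk1b had q = 0.346 in the authors' deposited table, and Cdh1 and Msln are given a p of 1 there, which may stand for a gene not tested. Of the 6 calls, only that of Krt19 was also made by limma. The authors' fold changes compare group levels on the FPKM scale. On that scale the ratio of group means for Krt7 was 2.38 with all libraries and 0.960 without CKO replicate 1. For Krt8 it was 1.57 and 0.896. It stayed above 1 for Krt18 (2.33 and 1.41), Krt19 (2.22 and 1.57), Upk3b (1.69 and 1.35) and Gpm6a (1.40 and 1.37).

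Single libraries stood above or below the others of their genotype across most markers. Relative to the mean of the other libraries of its genotype, CKO replicate 1 was higher in 8 of the 8 genes tested, by a median of 1.44 on the log2 scale, and the unnumbered WT library in 8 of 8, by a median of 0.84. CKO replicate 3 was lower in 8 of 8, with a median of -0.91. The median over all 13168 genes stayed between -0.01 and 0.02 in these libraries. CKO replicate 1 exceeded the mean of the other 4 CKO libraries 8.41-fold in Krt7, 4.76-fold in Krt8, 4.25-fold in Krt18, 3.07-fold in Krt19, 2.26-fold in Upk3b and 2.05-fold in Upk1b, on the FPKM scale. For Cdh1 it was 1.47-fold and for Gpm6a 1.10-fold. On the log2 scale, 0.0683% of all genes tested had an excess at or above that of Krt7, 10.9% at or above that of Cdh1 and 34.8% at or above that of Gpm6a.

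**Figure D4:**
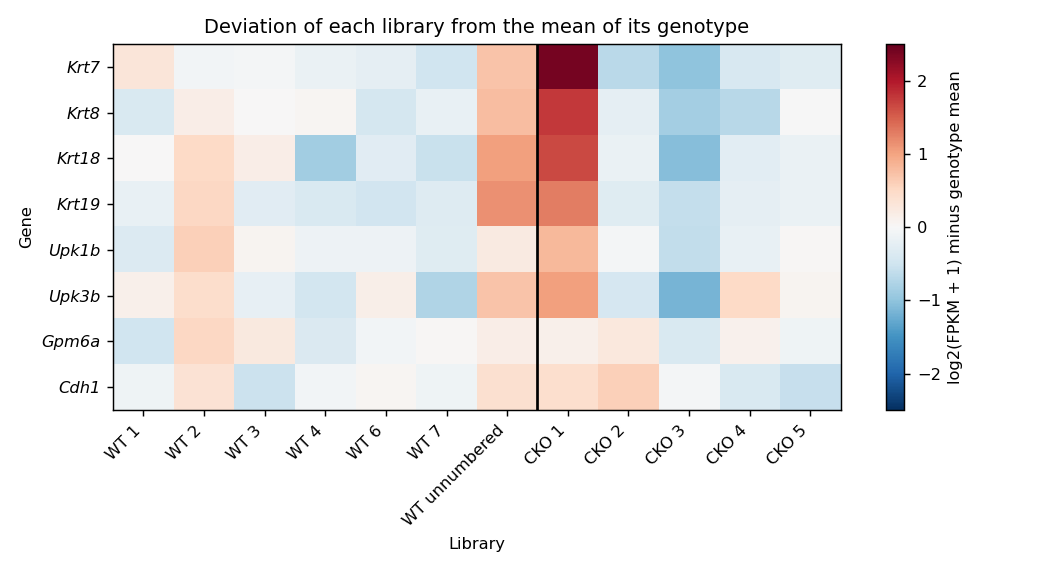
Log2(FPKM + 1) of the 8 genes tested in each library, minus the mean of the genotype (red above, blue below), with WT left and CKO right of the line. The columns of CKO replicate 1 and of the unnumbered WT library are above the mean in all 8 genes, and that of CKO replicate 3 is above it in none of them (0 of 8).

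Summed levels of genes listed for other cell types differed between CKO replicate 1 and the other CKO libraries as well. The summed FPKM of 10 granulosa genes was 2476 there and 1329 to 1658 in the other CKO libraries, against 3713 to 6621 in WT. The sum of 8 oocyte genes was 52.1 there and 5.51 to 38.5 in the other CKO libraries, against 63.1 to 209 in WT. The sum of 8 luteal and theca genes was 7081 there and 13401 to 18483 in the other CKO libraries, and in WT it was 7899 in the unnumbered library and 12806 to 20580 in the others. Alpha-globin (Hba-a1) was at 167 FPKM there and at most 37.1 FPKM in the other CKO libraries, while beta-globin (Hbb-bt) was at 75.4 FPKM there and 66.7 FPKM in CKO replicate 5. The summed macrophage genes were likewise high in both, at 3423 and 3745 FPKM, against 1199 to 1603 FPKM in the other 3. These sums follow their most abundant genes. In CKO replicate 1, Inha made 1910 of the 2476 FPKM, Hsd3b1 4890 of the 7081 FPKM and Lyz2 2248 of the 3423 FPKM. Single genes went otherwise. Within CKO, replicate 1 was lowest for Foxl2 (149 FPKM) and highest for Cyp17a1 (30.2 FPKM) and Akr1c18 (17.0 FPKM). Adgre1 was highest in CKO replicate 4 (5.99 FPKM) and at 2.93 FPKM in CKO replicate 5. The part of these cell types in the keratin levels was not tested. The oviduct transcript Ovgp1 was at 1.87 FPKM in CKO replicate 1. Of 6 genes listed for fat, 5 (Adipoq, Cidec, Retn, Lep and Cfd) stayed under 1 FPKM in all libraries, and Plin1 was at 1.08 to 14.4 FPKM, with 3.29 FPKM in CKO replicate 1.

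Within WT, the markers varied together in sign but not beyond the test. Of 28 pairs among the 8 genes, 27 had a positive Pearson r over the 7 WT libraries, with a median of 0.632, and 0 passed an exact permutation test adjusted over the 28 pairs, while 8 had an unadjusted p under 0.05. The 6 keratin pairs had r between 0.624 and 0.878 (exact adjusted p between 0.111 and 0.240) and Spearman's rho between 0.464 and 0.857 (exact adjusted p between 0.307 and 0.423). Without the 2 libraries farthest from the median of the first gene, r of the keratin pairs ranged from -0.29 to 0.789. Krt18 with Krt19 kept 0.789, and Krt7 with Krt8 fell to -0.29, so that the relation of the latter pair rests on those libraries.

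Over all 12 libraries with the genotype means subtracted, genes most like each marker were named by Pearson r, as a description, 2 for each marker except Krt7, with 1. For Krt19 they were Tbx1 (r = 0.943) and Krt18 (0.930), and for Krt18 they were Krt19 (0.930) and Hsd17b2 (0.927). For Krt7 the gene named was Zar1l (0.932), and Krt8 was most like Rabl3 (0.937) and Lsm3 (0.920). Upk3b was most like Cables1 (0.953) and Nnat (0.931), Upk1b like Sectm1b (0.919) and Rrp15 (0.914), Cdh1 like Pla2g4a (0.928) and Il1rap (0.920), and Gpm6a like E030030I06Rik (0.925) and Thumpd1 (0.919). Without CKO replicate 1, over 11 libraries, r was 0.712 for Krt7 with Zar1l, 0.913 for Krt19 with Tbx1 and 0.951 for Upk3b with Cables1. The genes were picked for this likeness among 13168.

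Of 16 other genes listed for surface epithelium and mesothelium, 14 were tested, 3 rose, 0 fell and 11 did not pass. Over all genes tested, 8.7% were called higher and 7.59% lower. Their median log2 fold change was 0.34, against -0.01 over all genes tested. Efemp1, which encodes the matrix protein fibulin-3, averaged 38.4 ± 10.7 FPKM over the WT libraries (SD, n = 7) and 116 ± 38.4 FPKM over the CKO libraries (SD, n = 5), with a log2 fold change of 1.55 and adjusted p = 0.000406 (limma). Rspo1, a secreted activator of WNT signalling in the ovary, was at 4.62 ± 1.13 FPKM and 11.5 ± 3.12 FPKM, with a log2 fold change of 1.14 and adjusted p = 0.00116 (limma). Neither gene overlapped between the genotypes. Aldh1a1, a retinaldehyde dehydrogenase, was at 682 ± 329 FPKM and 1257 ± 235 FPKM (log2 fold change 0.96, adjusted p = 0.0137, limma). Each of the 3 calls was kept whichever of the 12 libraries was left out. These 3 genes are not exclusive to the surface layer. Aldh1a1 did not pass without CKO replicates 1 and 5 (adjusted p = 0.0978) or with the exact Wilcoxon test (adjusted p = 0.0947).

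Among the 11 genes of that list that did not pass were the following 4. Lrrn4, a mesothelium marker, averaged 2.97 ± 0.991 FPKM over the WT libraries (SD, n = 7) and 2.56 ± 1.35 FPKM over the CKO libraries (SD, n = 5), and Bnc1, which encodes the zinc finger protein basonuclin, averaged 3.36 ± 1.42 FPKM and 2.73 ± 0.892 FPKM. Pdpn, which encodes podoplanin, was at 5.71 ± 1.69 FPKM and 8.68 ± 4.26 FPKM (adjusted p = 0.217, limma), with its highest value, 15.8 FPKM, in CKO replicate 1. Wt1, the transcription factor of mesothelium and of granulosa cells, was at 39.3 ± 14.2 FPKM and 49.6 ± 9.14 FPKM (adjusted p = 0.239, limma), and leaving out the unnumbered WT library made it pass (adjusted p = 0.0477). Among 12 other keratins 2 were tested, and neither passed. They were Krt20, of intestinal and urothelial lining, with an adjusted p of 0.395, and Krt10, of epidermis, with 0.832.

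**Figure D5:**
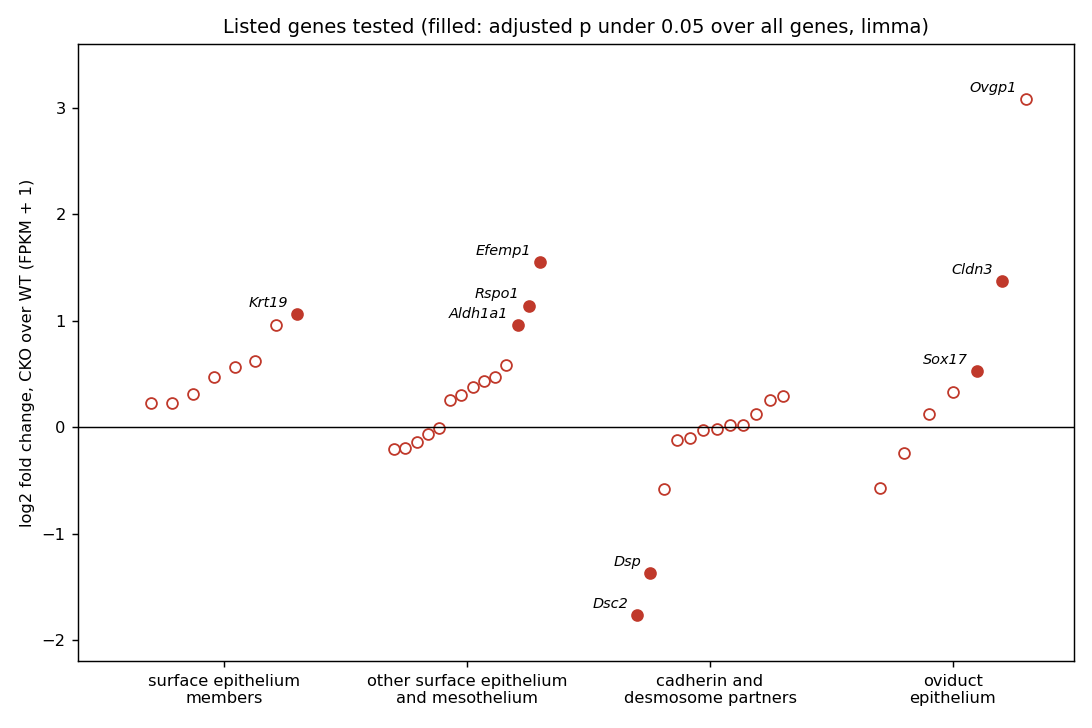
Log2 fold change of FPKM + 1, CKO over WT (limma), of each gene tested in 4 lists, filled where the adjusted p over all genes is under 0.05. Krt19 is the only filled point among the 8 markers, while Efemp1, Rspo1 and Aldh1a1 lie at 0.96 to 1.55 and Dsp and Dsc2 at -1.37 and -1.76.

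Among the other junction genes listed, a pair of desmosome genes fell. Of 12 cadherin, catenin and desmosome genes tested, 0 rose, 2 fell and 10 did not pass, with a median log2 fold change of -0.02. The shares over all genes tested were 8.7% called higher and 7.59% called lower. Dsc2, which encodes the desmosomal cadherin desmocollin-2, averaged 7.66 ± 2.90 FPKM over the WT libraries (SD, n = 7) and 1.52 ± 0.994 FPKM over the CKO libraries (SD, n = 5), a log2 fold change of -1.76 (adjusted p = 0.00219, limma). Dsp, which encodes desmoplakin, the link from desmosomes to keratin filaments, was at 11.7 ± 3.87 FPKM and 4.52 ± 3.54 FPKM, a log2 fold change of -1.37 (adjusted p = 0.0111, limma). In CKO replicate 1 Dsp was at 10.3 FPKM, inside the WT range, and leaving that library out gave a log2 fold change of -1.69. Dsp did not pass without CKO replicates 2 and 3 (adjusted p = 0.0528) or with the exact Wilcoxon test (adjusted p = 0.0947). The 10 granulosa genes fell in the same libraries, and their part in the fall of Dsp and Dsc2 was not tested. Jup, which encodes plakoglobin, had a log2 fold change of 0.30 (adjusted p = 0.139, limma), passed without CKO replicate 2 (adjusted p = 0.0498) or without both CKO replicates 2 and 3 (adjusted p = 0.0361), and was at 0.18 without CKO replicate 4. Cdh2, which encodes N-cadherin, the cadherin of granulosa cells, did not pass with all libraries (log2 fold change -0.58, adjusted p = 0.07, limma). It passed without CKO replicate 1 (-0.73, adjusted p = 0.0274), which made 3 falls in the list, or without CKO replicate 4 (-0.69, adjusted p = 0.0458).

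Oviduct epithelium also makes simple keratins. Of 13 genes listed for it 7 were tested, Cldn3 and Sox17 rose and 0 fell, while 8.7% of all genes tested were called higher and 7.59% lower. The summed level of the list was 36.3 to 53.2 FPKM in WT, and 98.0, 335, 141, 46.7 and 56.2 FPKM in CKO replicates 1 to 5, so that replicate 4 lay inside the WT range. Ovgp1, with every CKO value above every WT value, narrowly missed the threshold (log2 fold change 3.09, adjusted p = 0.0517, limma). It passed with a pseudocount of 0.1 (adjusted p = 0.0302) or 0.5 (adjusted p = 0.04), with the exact Wilcoxon test (adjusted p = 0.0327), and without CKO replicate 1, 4 or 5 (adjusted p between 0.0308 and 0.0353). Tppp3, of ciliated cells, had a log2 fold change of -0.57 (adjusted p = 0.226, limma) and passed without CKO replicate 1 (-0.89, adjusted p = 0.0222). Dynlrb2 and Ccdc153 were listed at 0 in all libraries. Foxj1 and Pax8, under the filter and not tested with limma, were higher in CKO replicates 2 and 3. Foxj1 was at 4.72 and 1.48 FPKM there, against at most 0.600 FPKM in WT. Pax8 was at 2.36 and 1.06 FPKM there, and every CKO value lay above the highest WT value, 0.144 FPKM. Rsph1, also under the filter, went the other way, with means of 0.628 FPKM in WT and 0.107 FPKM in CKO. Cldn3, a claudin of tight junctions, averaged 11.4 ± 2.77 FPKM over the WT libraries (SD, n = 7) and 31.6 ± 10.1 FPKM over the CKO libraries (SD, n = 5), with no overlap, a log2 fold change of 1.37 (adjusted p = 0.000476, limma) and 1.35 without CKO replicates 2 and 3. Sox17, which endothelium also makes, had a log2 fold change of 0.53 (adjusted p = 0.0464, limma), a call that 9 of the 12 libraries ended when left out, and 0.34 without CKO replicates 2 and 3 (adjusted p = 0.245). Epcam, a general epithelial adhesion protein, was at 7.17 ± 2.99 FPKM and 7.64 ± 2.59 FPKM. Krt19 was called without CKO replicates 2 and 3 as well, with a log2 fold change of 1.37 (adjusted p = 0.0375, limma).

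Granulosa, oocyte, stromal and macrophage genes also differed between the genotypes in the same libraries. All 10 granulosa genes fell (Fshr, Foxl2, Amh, Cyp19a1, Inha, Inhba, Inhbb, Fst, Nr5a2 and Hsd17b1), with log2 fold changes between -4.14 and -0.49. Of 8 oocyte genes 6 were tested and fell (Gdf9, Bmp15, Zp3, Ooep, Zar1 and Mos). Zp1 and Zp2 did not pass the filter. Zp1 averaged 1.07 FPKM in WT and 1.02 FPKM in CKO, and Zp2 0.560 and 0.839 FPKM. Of 8 stromal genes 5 rose (Dcn, Lum, Mgp, Tcf21 and Ogn) and 0 fell, and of 8 macrophage genes 6 rose (Cd68, Csf1r, Lyz2, C1qa, C1qb and Ptprc) and 0 fell. Without CKO replicate 1 the counts were 9 granulosa, 6 oocyte, 4 stromal and 5 macrophage genes, the lost calls being Foxl2 (adjusted p = 0.0865), Ogn (0.0592) and Ptprc (0.059). Without CKO replicates 1 and 5 they were 9, 4, 3 and 3, and with the exact Wilcoxon test 7, 4, 3 and 3. Parm1 fell among 8 luteal and theca genes and 7 did not pass, with a median log2 fold change of -0.14 over the list. Plin1, the 1 fat gene tested, fell (log2 fold change -0.88, adjusted p = 0.0464, limma), a call that 10 of the 12 libraries ended when left out. FPKM is a share of the library, and how far the fall of granulosa transcripts moves the share of surface epithelium transcripts was not tested.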

How the data were processed

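Whole-ovary RNA was analysed from 12 samples, 7 WT and 5 CKO, grouped by title. Per the labels and the series' design text, poly(A) RNA was sequenced as paired ends, and the authors aligned trimmed reads to mm10 with TopHat2 2.0.13, computed normalized FPKM with Cufflinks 2.2.1 and compared groups with Cuffdiff 2.2.1. What annotation, strand setting and scaling they used is not stated. The deposited log2 fold changes, p-values and q-values are the authors' own and appear only where their table is named. The deposited fold is CKO over WT by the values, although its column name gives the other order.

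Columns were matched to samples by label. Genes with at least 1 FPKM in at least 5 libraries (13168) were tested as log2(FPKM + 1) with limma 3.58.1 in R 4.3.3 (trended, genotype only, two-sided, Benjamini-Hochberg, threshold 0.05). On this log2 scale the folds of low genes come out too small. On data simulated for these 13168 genes, 74% of genes changed by 1 (log2) and 96% of those changed by 2 were recovered. The changed genes were drawn at random, so these shares are averages. They do not give the chance of a call for a single marker, whose spread may be wider. Exact permutation tests of genotype and of marker pairs enumerated every split or pairing in Python 3.11.15. SciPy 1.17.1 gave the ranks and the adjustment over the marker pairs. Total counts were not used here. Depth was estimated from FPKM steps of single-transcript genes, of which 71.5% to 81.4% lay within 0.2 of a whole multiple. No 2 libraries were duplicates (highest correlation 0.971). Positions are from GENCODE M21.

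The genes, lists and alternatives were chosen with earlier results of these data known. All 10 markers are named. Of other lists the called genes are named and, for the epithelial lists, up to 2 more with the smallest p, and for each marker the 2 genes of highest r within genotype, of which 1 for Krt7 is not reported here. Lrrn4, Bnc1, Epcam, Upk1a and the keratins, uroplakins and fat genes at or near 0 were named after their values were seen. So were the oviduct genes Foxj1, Pax8, Elf3, Cldn4, Rsph1 and Wfdc2. The same holds for Cyp17a1, Akr1c18, Adgre1 and the single-library values of globin, macrophage and other cell type genes. Alternatives covered the pseudocount, filter, scaling, library weights, Wilcoxon test, left-out libraries and a replicate block.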

Additional observations from a re-analysis of the deposited data

Results flagged for a closer look

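Among the 18 groups of values of the 9 markers, 5 held a library whose gap to the nearest other library exceeded Dixon's 95% limit for the range of its group. Chance gives this in about 1 in 20 groups, and the markers share libraries. In CKO, replicate 1 was such a library for the 4 keratins, at 86.7 FPKM for Krt7, 65.1 FPKM for Krt8, 66.8 FPKM for Krt18 and 122 FPKM for Krt19. In these 4 genes its gap made up 0.933, 0.847, 0.845 and 0.868 of the CKO range, against a limit of 0.71 for 5 libraries. In WT, the unnumbered library was such a library for Krt8, at 25.9 FPKM, with a gap of 0.604 of the range against a limit of 0.568 for 7 libraries.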

How the results depend on the processing

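The number of markers higher in CKO was 1 with all libraries and between 0 and 2 when 1 library was left out. It was 0 with no filter beyond a value above 0, with the exact Wilcoxon test and without CKO replicates 1 and 5, and it was 2 when CKO replicates 2 and 3 were left out. The number lower was 0 in every setting run. Krt19 was called with both other pseudocounts, the filter of 3 libraries, both scalings and library weights. With 1 library left out, the log2 fold change ranged from -0.029 to 0.82 for Krt7, from -0.13 to 0.52 for Krt8 (both lowest without CKO replicate 1, highest without CKO replicate 3) and from -0.16 to 0.0037 for Krt10 (highest without CKO replicate 4). Without CKO replicates 1 and 5 it was -0.13 for Krt7, -0.28 for Krt8 and -0.051 for Upk1b. Fewer libraries also mean less precision, and beyond this the cause was not tested.

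WT and CKO share the replicate numbers 1 to 4 among the numbered libraries. Deviations of same-numbered libraries from their group means had correlations of -0.03, 0.09, 0.04 and -0.07, so the numbers do not pair the libraries. With the replicate block, 0 markers were called, and Krt19 had a log2 fold change of 1.19 (adjusted p = 0.0614, limma), against 1 call in the same numbered libraries with no block, a setting chosen after seeing the data.

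Depth limits Msln, whose values rest on few fragments, and Cdh1, at about 10.0 to 68.6 fragments a library by the same estimate.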
